A study of Mus musculus with 12 samples.

Results

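The genes described here encode proteins with which phagocytes break down what they take up: the lysosomal cathepsin genes Ctss, Ctsc, Ctsh and Ctsz, the lysozyme genes Lyz1 and Lyz2, the pore-forming protein gene Mpeg1 and the lysosomal membrane glycoprotein gene Cd68. Members were all probe sets annotated to 1 of these 8 genes alone, which gave 12 of the 22626 probe sets of the array. A probe set is a group of short probes that together read 1 transcript, and each value is a log2 signal, so that a difference of 1 is a doubling. The group was widened from genes already seen to be higher in USP18ko than in WT, so the signals of those 2 genotypes chose the members. Differences that involve USP18ko or WT are therefore given as a description without a test, and the members were tested in USP18ko:IFNARko against IFNARko, whose arrays played no part in that choice.

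Phagocytosed material and membrane proteins are delivered to the lysosome, an acidic compartment whose proteases, glycosidases and lipases degrade them. In the brain this work is done mainly by microglia and by macrophages at the vessels and meninges, and by leukocytes when these enter the tissue. Cathepsin S, unlike most lysosomal proteases, stays active near neutral pH and trims the invariant chain that guards MHC class II molecules. Usp18 removes the ubiquitin-like modifier ISG15 from proteins and also restrains signalling from the type I interferon receptor, of which Ifnar1 encodes a chain.

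Total brain lysate of untreated adult mice, kept specific-pathogen-free, gave the RNA for 12 Affymetrix 3' expression arrays. These were 3 each from the double knockout of Usp18 and Ifnar1 (USP18ko:IFNARko), the Usp18 knockout (USP18ko), the Ifnar1 knockout (IFNARko) and wild type (WT). The sources used here do not state the alleles, the strain, the exact age, the sex or whether each replicate was an animal of its own. The p-values therefore set differences against the spread of these samples within genotypes, and that spread may be technical. In whole-brain RNA, more phagocytes and more RNA of these genes per phagocyte cannot be told apart.

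Some arrays stood apart and enter the values below. In IFNARko replicate 1 the 3' signal of beta-actin exceeded the 5' signal by 1.48, against 0.20 to 0.54 in the other 11 arrays, and this array correlated with the rest at 0.963 to 0.974, against 0.983 to 0.998 among the others. In WT, the myelin gene Mog read 7.32 in replicate 2, against 3.11 and 3.36 in replicates 1 and 3. Xist was high in all USP18ko:IFNARko arrays (10.34 to 11.34) and in WT replicate 1 (10.17) and read 4.98 to 5.69 in the other 8 arrays. The double knockout thus differed from both single knockouts in this sex-linked transcript as well as in genotype, and USP18ko:IFNARko replicate 2 also carried a Y-linked Eif2s3y signal of 7.16. Ifnar1 read 6.56 to 6.68 in USP18ko:IFNARko and 6.24 to 6.59 in IFNARko, against 7.76 to 8.01 in USP18ko and 7.44 to 8.21 in WT. Usp18 read 3.50 to 3.71 in USP18ko:IFNARko, 3.55 to 3.76 in USP18ko and 3.53 to 3.67 in IFNARko, against 4.04 to 4.36 in WT, all in the low part of a scale whose lowest values are 2.36 to 2.46 per array. Whether these probe sets lie in the deleted sequence was not tested.

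The cysteine cathepsins are introduced with their promoters, because Ctss and Ctsc were the cathepsin genes with the larger differences in USP18ko. Ctss lies on chromosome 3 (95526786 to 95556405) and Ctsc on chromosome 7 (88278024 to 88315861) of GRCm38.p6. The 250 bases before the transcript start given in RefSeq's promoter table, which for Ctsc lies inside the gene span printed here, were searched on both strands for the core of the interferon-stimulated response element (GAAA, any 2 bases, GAAA), the core of the gamma-activated site (TTCNNNGAA), the E-box CACGTG contained in the site of the lysosome regulator TFEB, and the site GAGGAAGT of PU.1, the transcription factor of myeloid cells. Capitals mark the matches: GAAACCGAAA, a response element core, in Ctss and, in Ctsc, TTCCTTGAA, a gamma-activated core, then ACTTCCTC, which is GAGGAAGT read on the other strand.
Ctss promoter, chr3:95526536-95526785, plus strand: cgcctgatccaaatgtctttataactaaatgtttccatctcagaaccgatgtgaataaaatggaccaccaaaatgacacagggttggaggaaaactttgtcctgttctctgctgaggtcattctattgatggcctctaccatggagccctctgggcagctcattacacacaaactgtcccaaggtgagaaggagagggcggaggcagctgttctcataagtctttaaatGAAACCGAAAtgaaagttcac
Ctsc promoter, chr7:88277835-88278084, plus strand: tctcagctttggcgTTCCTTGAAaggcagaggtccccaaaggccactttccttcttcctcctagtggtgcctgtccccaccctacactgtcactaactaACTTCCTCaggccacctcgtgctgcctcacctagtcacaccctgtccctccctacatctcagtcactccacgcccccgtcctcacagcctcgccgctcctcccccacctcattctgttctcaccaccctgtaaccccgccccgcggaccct

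The Ctss match ran from 21 to 12 bases before the start. Of all 32851 promoters of the table, 2.98% held the response element core, 7.02% TTCNNNGAA, 6.02% CACGTG and 2.44% GAGGAAGT in this window. Of the 7 member promoters in the table, the response element core was in that of Ctss, TTCNNNGAA and GAGGAAGT in that of Ctsc, and CACGTG in 0. The promoters of Lyz1, Lyz2, Mpeg1, Cd68 and Ctsz held none of the 4 motifs in these letters, and Ctsh was not among the promoters used here. A match is a run of letters and not a shown binding site.

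Ctss, the gene of cathepsin S, was among the members with the largest differences. Its signals were 10.96, 11.51 and 11.07 in USP18ko, against 8.71, 9.67 and 9.43 in WT. In USP18ko:IFNARko they were 9.08, 8.98 and 9.01, against 9.77, 9.04 and 9.08 in IFNARko. All USP18ko arrays thus lay above the other 9, whose genotypes overlapped, with the IFNARko maximum in replicate 1. The difference of USP18ko from WT was 1.91 (SE 0.25), and that of USP18ko:IFNARko from USP18ko -2.16 (SE 0.25).

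Ctsc encodes dipeptidyl peptidase I, which activates serine proteases of cytotoxic and neutrophil granules by removing their first residues. Ctsc read 8.78, 9.38 and 9.52 in USP18ko, against 7.40, 8.01 and 7.81 in WT. In USP18ko:IFNARko it read 7.80, 8.04 and 7.93, against 8.54, 8.12 and 7.87 in IFNARko. USP18ko again stood above the other genotypes, by 1.48 (SE 0.22) over WT, and the gap between the lowest USP18ko array and IFNARko replicate 1 was small beside the spread within USP18ko.

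Ctsh, on chromosome 9, encodes an aminopeptidase, and its USP18ko, IFNARko and WT arrays overlapped. Its signals were 8.04, 8.57 and 8.24 in USP18ko, against 7.40, 8.09 and 7.60 in WT, and WT replicate 2 lay above USP18ko replicate 1. In USP18ko:IFNARko they were 7.45, 7.70 and 7.63, against 8.23, 7.89 and 7.90 in IFNARko, so that the double knockout lay below both single knockouts. The difference of USP18ko from WT was 0.59 (SE 0.19).

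Ctsz, on chromosome 2, encodes a carboxypeptidase, and its 3 probe sets gave nearly the same difference of USP18ko from WT: 0.67 (SE 0.22) for 1417868_a_at, 0.71 (SE 0.13) for 1417869_s_at and 0.77 (SE 0.15) for 1417870_x_at. Probe set 1417869_s_at read 9.17, 9.30 and 9.11 in USP18ko, against 8.22, 8.80 and 8.42 in WT. It read 8.45, 8.37 and 8.46 in USP18ko:IFNARko, against 8.19, 8.31 and 8.31 in IFNARko. For each of the 3 probe sets all USP18ko arrays lay above all WT arrays. Their differences of USP18ko:IFNARko from USP18ko were -0.75, -0.77 and -0.73.

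The lysozymes cleave the peptidoglycan of bacterial walls. In the mouse Lyz2 is the form of myeloid cells and Lyz1 that of Paneth cells of the gut, and the genes are neighbours on chromosome 10 of GRCm38.p6, Lyz2 at 117277541 to 117282272 and Lyz1 at 117287795 to 117292868, with 5522 bases between them. Their promoters are shown because the probe sets of these related genes did not behave alike. Of 252 aligned positions of the 250-base windows, 200 were identical (79.4%), and neither window had a motif match, so that no letters are in capitals.
Lyz1 promoter, chr10:117292869-117293118, minus strand: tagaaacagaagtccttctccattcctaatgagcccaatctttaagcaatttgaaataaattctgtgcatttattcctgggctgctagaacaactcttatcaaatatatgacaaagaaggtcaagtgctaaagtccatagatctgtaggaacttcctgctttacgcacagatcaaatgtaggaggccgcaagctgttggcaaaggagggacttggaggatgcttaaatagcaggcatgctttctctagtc
Lyz2 promoter, chr10:117282273-117282522, minus strand: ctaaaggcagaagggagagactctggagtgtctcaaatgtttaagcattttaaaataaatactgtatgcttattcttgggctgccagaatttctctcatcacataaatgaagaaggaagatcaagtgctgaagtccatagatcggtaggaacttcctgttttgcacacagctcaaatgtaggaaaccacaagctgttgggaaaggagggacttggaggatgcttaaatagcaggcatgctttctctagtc

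Lyz2 read 8.85, 8.42 and 9.18 in USP18ko, against 6.78, 7.41 and 7.11 in WT. In USP18ko:IFNARko it read 6.60, 6.69 and 7.05, against 7.50, 6.67 and 6.75 in IFNARko. The USP18ko arrays stood clear of the rest, and the difference from WT was 1.71 (SE 0.25). The Lyz1 probe set 1436996_x_at averaged 9.86 ± 0.26 in USP18ko (SD, n = 3, from 9.56 in replicate 2 to 10.01 in replicate 1) and read 7.62, 8.29 and 8.02 in WT. The difference was 1.88 (SE 0.27). In USP18ko:IFNARko it read 7.50, 7.61 and 7.74, against 8.70, 7.52 and 7.75 in IFNARko. A second Lyz1 probe set, 1439426_x_at, also differed by 1.88 (SE 0.27), with means of 8.23 ± 0.45 in USP18ko and 6.35 ± 0.33 in WT (SD, n = 3 each). The suffix _x_at marks probe sets with probes that can also bind other transcripts.

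The remaining Lyz1 probe set, 1450822_at, has no such suffix and was nearly flat. It read 4.71, 4.74 and 4.89 in USP18ko, against 4.59, 4.48 and 4.61 in WT, and 4.37, 4.55 and 4.74 in USP18ko:IFNARko, against 4.66, 4.58 and 4.71 in IFNARko. The USP18ko arrays were still the highest 3 when set against WT alone, by 0.22 (SE 0.11), but overlapped those of both other genotypes. The 3 Lyz1 probe sets thus disagreed, at 1.88, 1.88 and 0.22 on the log2 scale, and the larger values were close to that of Lyz2. The signals of 1450822_at lay in the low part of the scale and have no detection call. A lack of difference and a lack of signal cannot be told apart for that probe set. Whether 1436996_x_at and 1439426_x_at read Lyz2 transcripts was not tested, and the values of Lyz1 and Lyz2 are uncertain as a measure of 1 gene each.

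Mpeg1, on chromosome 19 (12460770 to 12465285), encodes a macrophage perforin that forms pores in the membranes of engulfed bacteria. Its signals were 8.97, 9.28 and 9.08 in USP18ko, against 6.90, 7.54 and 7.10 in WT. In USP18ko:IFNARko they were 7.05, 6.81 and 7.02, against 7.50, 6.74 and 6.87 in IFNARko. The lowest USP18ko array lay well above the highest of the other 9, and the difference from WT was 1.93 (SE 0.21), the largest among the members.

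Cd68, on chromosome 11 (69664213 to 69666170), encodes macrosialin, a heavily glycosylated protein of phagocyte late endosomes and lysosomes. Cd68 read 7.35, 7.53 and 7.43 in USP18ko, against 5.67, 7.47 and 6.61 in WT. In USP18ko:IFNARko it read 6.25, 6.37 and 6.51, against 6.68, 6.37 and 6.58 in IFNARko. The USP18ko arrays differed little among themselves, while the WT arrays spread over a wider range than any other genotype and member. The difference from WT was 0.85 (SE 0.32), or 0.40 without WT replicate 1 and 1.30 without WT replicate 2.

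**Figure D1:**
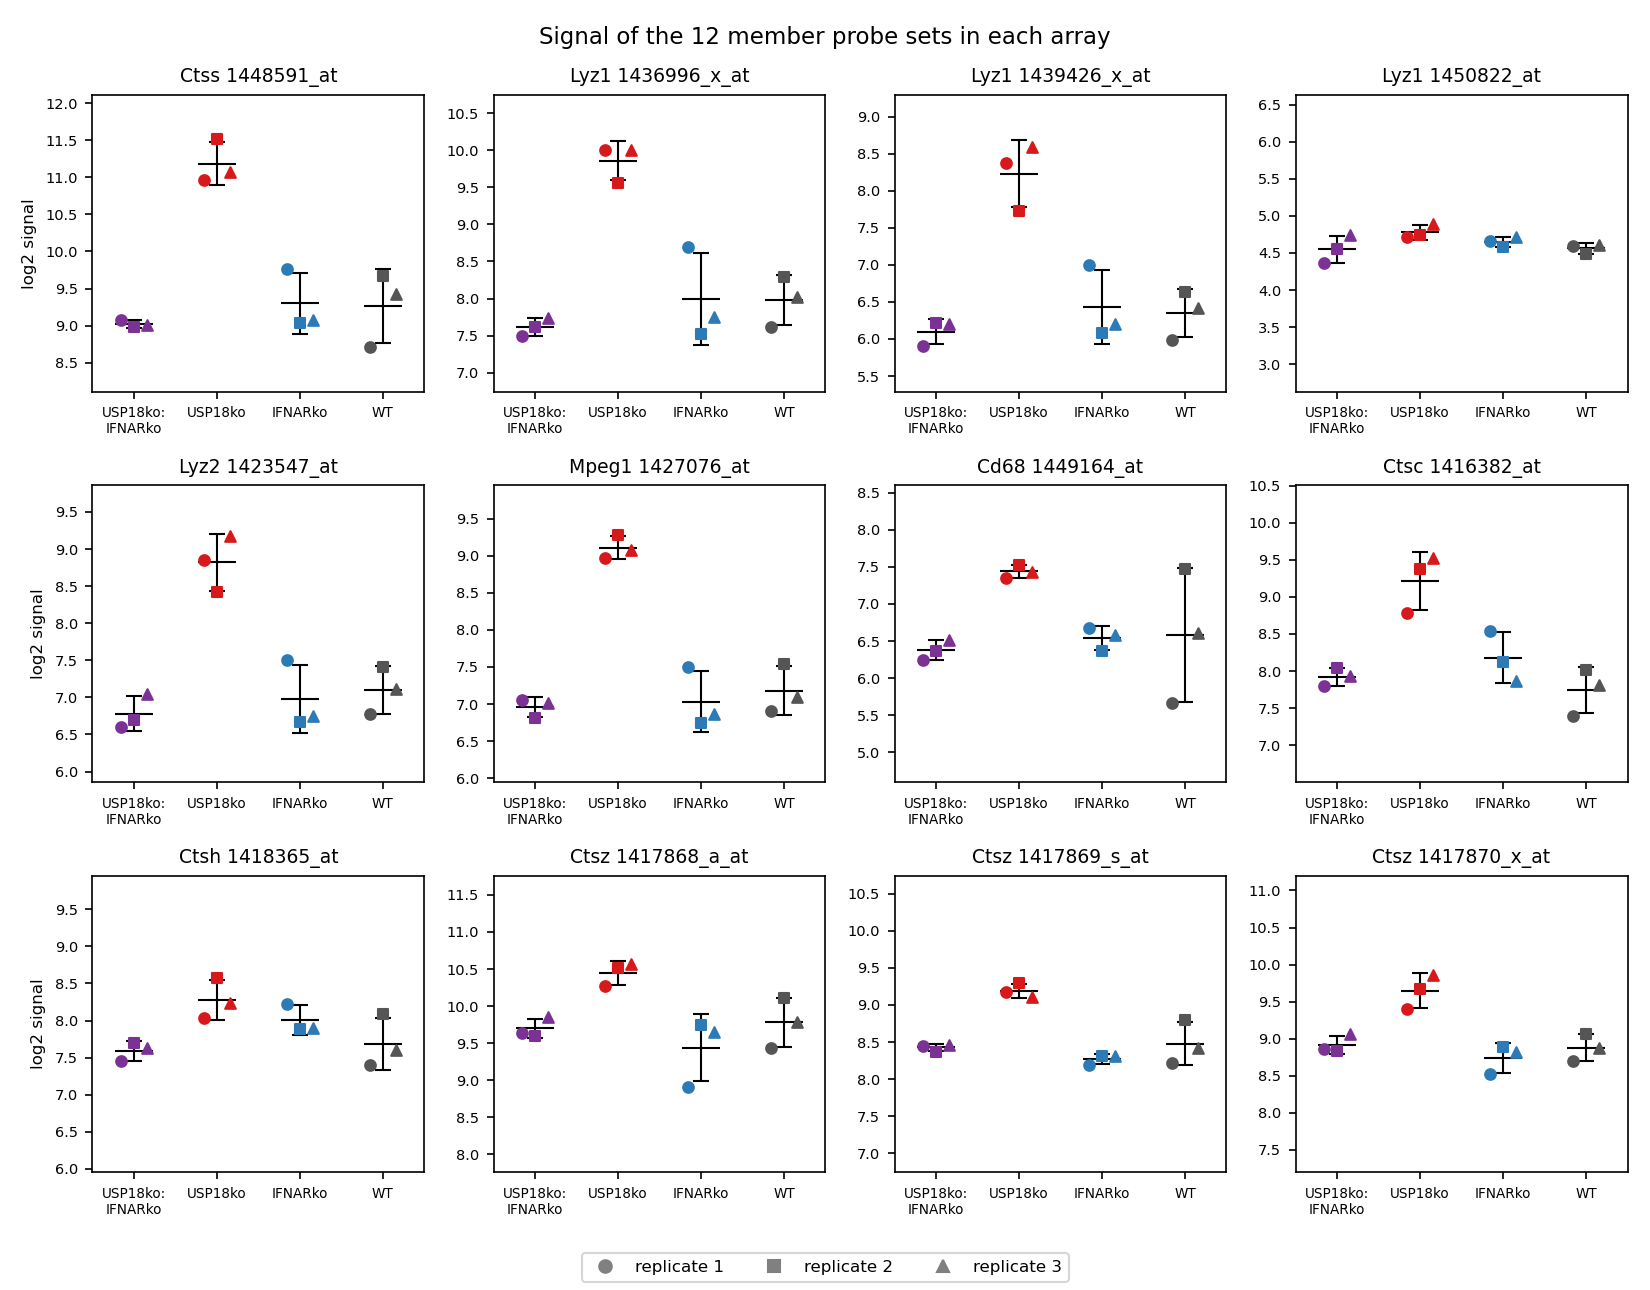
Log2 signal of the 12 member probe sets in each array, with replicates 1, 2 and 3 of each genotype as circles, squares and triangles and the mean ± SD of 3 arrays in black; all panels span the same range of log2 units. The USP18ko arrays stand apart in most panels, Lyz1 1450822_at is nearly flat, and the WT arrays of Cd68 spread from 5.67 to 7.47.

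Over the members, USP18ko had the highest mean of the 4 genotypes in all 12 probe sets. All USP18ko arrays lay above all WT arrays in 10 of 12, the exceptions being Cd68 and Ctsh. Over all 22626 probe sets this was so in 4.1%, and nothing is read from the contrast since it chose the members. The median difference of the 8 genes, each by its probe set with the highest mean, was 1.60, beside -0.02 over all 12393 genes. By the same probe sets, the members fell into a group at 1.48 to 1.93 (Ctss, Ctsc, Lyz1, Lyz2 and Mpeg1) and one at 0.59 to 0.85 (Cd68, Ctsh and Ctsz). For Lyz1 this was an _x_at probe set. Its probe set without that suffix, 1450822_at, differed by 0.22 (SE 0.11) and lay in neither group. The median and the first group count Lyz1 and Lyz2 as separate genes, although whether the _x_at probe sets read Lyz2 transcripts was not tested. When 1 array of USP18ko or WT at a time was left out, 10 to 12 of the 12 probe sets did not overlap. The share of all probe sets was not computed with an array left out.

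The double knockout was then set against USP18ko, for the state of these genes when the interferon receptor gene is also deleted. Signals were lower in USP18ko:IFNARko in all 12 probe sets, with differences from -2.24 for Lyz1 1436996_x_at to -0.23 for Lyz1 1450822_at. All USP18ko:IFNARko arrays lay below all USP18ko arrays in 11 of 12 probe sets, with Lyz1 1450822_at as the exception, against 7.12% of all probe sets. The median over the 8 genes was -1.67, beside 0.00 over all genes. This comparison shares its USP18ko arrays with the choice of the members, and Xist and genotype differed together in it. With the Eif2s3y signal as a covariate the differences of Cd68 and Ctsh were -0.50 and -0.42, against -1.06 and -0.69 without it, and all 12 stayed below 0.

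The order of the 3 genotypes other than USP18ko was not settled for most members. Among USP18ko:IFNARko, IFNARko and WT, every neighbouring pair in the order of means overlapped, except for Ctsz 1417869_s_at, whose USP18ko:IFNARko arrays lay above its IFNARko arrays. IFNARko and WT overlapped in 12 of 12 probe sets, where 11.4% of all probe sets did not overlap, and differences ran from -0.34 for Ctsz 1417868_a_at to 0.44 for Ctsc. USP18ko:IFNARko and WT also overlapped in 12 of 12, where 15.9% of all probe sets did not, with differences from -0.36 to 0.18. Both counts share the WT arrays with the choice of the members. For IFNARko and WT, 2 probe sets no longer overlapped without WT replicate 1, WT replicate 2 or IFNARko replicate 1, and 1 without IFNARko replicate 2 or 3. For USP18ko:IFNARko and WT, 6 no longer overlapped without WT replicate 1 and 2 without USP18ko:IFNARko replicate 3. Groups with fewer arrays overlap less readily, and the share of all probe sets was not computed with an array left out. These counts therefore have no background beside them.

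USP18ko:IFNARko against IFNARko asks whether loss of Usp18 changes these genes when the receptor gene is absent. No member passed limma's test at an adjusted p under 0.05, and 1, Ctsh, had an unadjusted p under 0.05. Of the 22626 probe sets 0% were called, with 1889 at that unadjusted p. Ctsh was lower in USP18ko:IFNARko by 0.41 (95% interval -0.82 to -0.01, limma adjusted p = 0.547), with all 3 of its arrays below the 3 IFNARko arrays. Ctss differed by -0.28 (95% interval -0.82 to 0.27, limma adjusted p = 0.652) and Mpeg1 by -0.07 (95% interval -0.52 to 0.38, limma adjusted p = 0.903). The intervals of Ctss, Ctsc, Lyz2, Mpeg1 and the 2 _x_at probe sets of Lyz1 had upper ends of 0.21 to 0.38. Upper ends were 0.14 for Lyz1 1450822_at, 0.53 for Cd68 and 0.73, 0.44 and 0.50 for the 3 Ctsz probe sets. For Ctsz 1417868_a_at the upper end of 0.73 lay above its difference of USP18ko from WT, 0.67.

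Of the 12 differences 9 were below 0 and 3, those of Ctsz, above 0. With the Eif2s3y signal as a covariate 6 of those 9 turned, to 0.18 for Ctss, 0.13 for Ctsc, 0.11 for Mpeg1, 0.53 for Cd68, 0.01 for Lyz2 and 0.00 for Lyz1 1439426_x_at, so the direction was not settled. The covariate was fitted over all 12 arrays. Eif2s3y was low in WT replicate 1 (3.18) as well as in USP18ko:IFNARko replicates 1 (3.05) and 3 (3.22). The WT arrays, which entered the choice of the members, therefore also enter these adjusted differences. Without the covariate, the adjusted p-values from limma were 0.547 to 0.903. The groups did not overlap in 2 of 12 probe sets, Ctsh and Ctsz 1417869_s_at, where this held for 19.5% of all probe sets. IFNARko replicate 1 was the highest IFNARko array in 8 of 12 probe sets and the lowest in the 3 of Ctsz. Without it, Ctss differed by -0.04, Ctsh by -0.30, Lyz2 by 0.07, Mpeg1 by 0.16 and Ctsz 1417868_a_at by 0.00, and again 0 of 12 passed. Xist and genotype also differed together in this comparison, and the part of sex was not tested further than by the Eif2s3y covariate. With 3 arrays on each side, the smallest two-sided p an exact permutation test allows is 0.1.

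**Figure D2:**
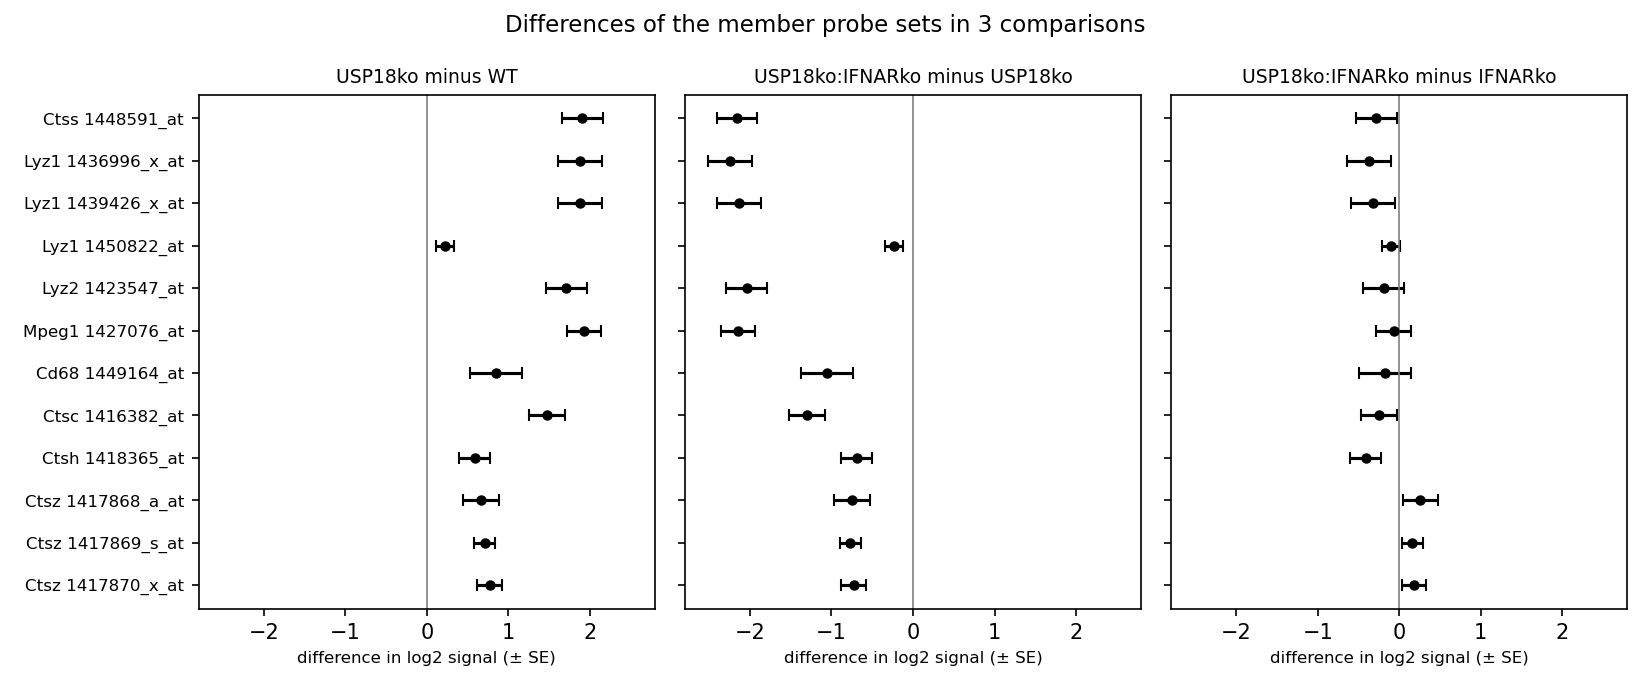
Differences in log2 signal (points, with bars of ± SE from the limma fit) of the 12 member probe sets in USP18ko minus WT, USP18ko:IFNARko minus USP18ko and USP18ko:IFNARko minus IFNARko. Values of the first panel run from 0.22 to 1.93, those of the second from -2.24 to -0.23 and those of the third from -0.41 to 0.26.

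The change in the Usp18 difference with the receptor genotype was also computed, as USP18ko:IFNARko minus IFNARko less USP18ko minus WT. It was below 0 in all 12 probe sets, at -2.26 to -0.32, with -2.19 (SE 0.35) for Ctss, -1.91 (SE 0.36) for Lyz2 and -0.41 (SE 0.31) for Ctsz 1417868_a_at. USP18ko and WT enter it, so it is a description.

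The WT replicates differed in the same way across most members. WT replicate 1 was the lowest WT array in 11 of 12 probe sets and WT replicate 2 the highest in 11 of 12, with Lyz1 1450822_at as the exception both times. Of 10 microglia markers, 9 were likewise lowest in WT replicate 1 and 9 highest in WT replicate 2, so member signals and microglial transcripts moved together among WT arrays. Relative to the WT mean the members averaged -0.43 in replicate 1 and 0.41 in replicate 2, and the microglia markers -0.53 and 0.47. Markers of other cell types were not counted by replicate. Mog (3.11, 7.32 and 3.36) and the astrocyte gene Gfap (8.93, 10.23 and 9.04) had the same order in WT. The neuron gene Syt1 (8.52, 8.88 and 9.18) was highest in replicate 3. WT replicate 1 was also the WT array with high Xist (10.17), and the part of sex was not tested here. In IFNARko replicate 1 the members averaged 0.30 above their genotype mean and the microglia markers 0.14. USP18ko showed another pattern: Lyz2 and both _x_at probe sets of Lyz1 were lowest in replicate 2, the array in which Ctss, Mpeg1, Cd68 and Ctsh were highest and in which 8 of 10 microglia markers were highest.

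**Figure D3:**
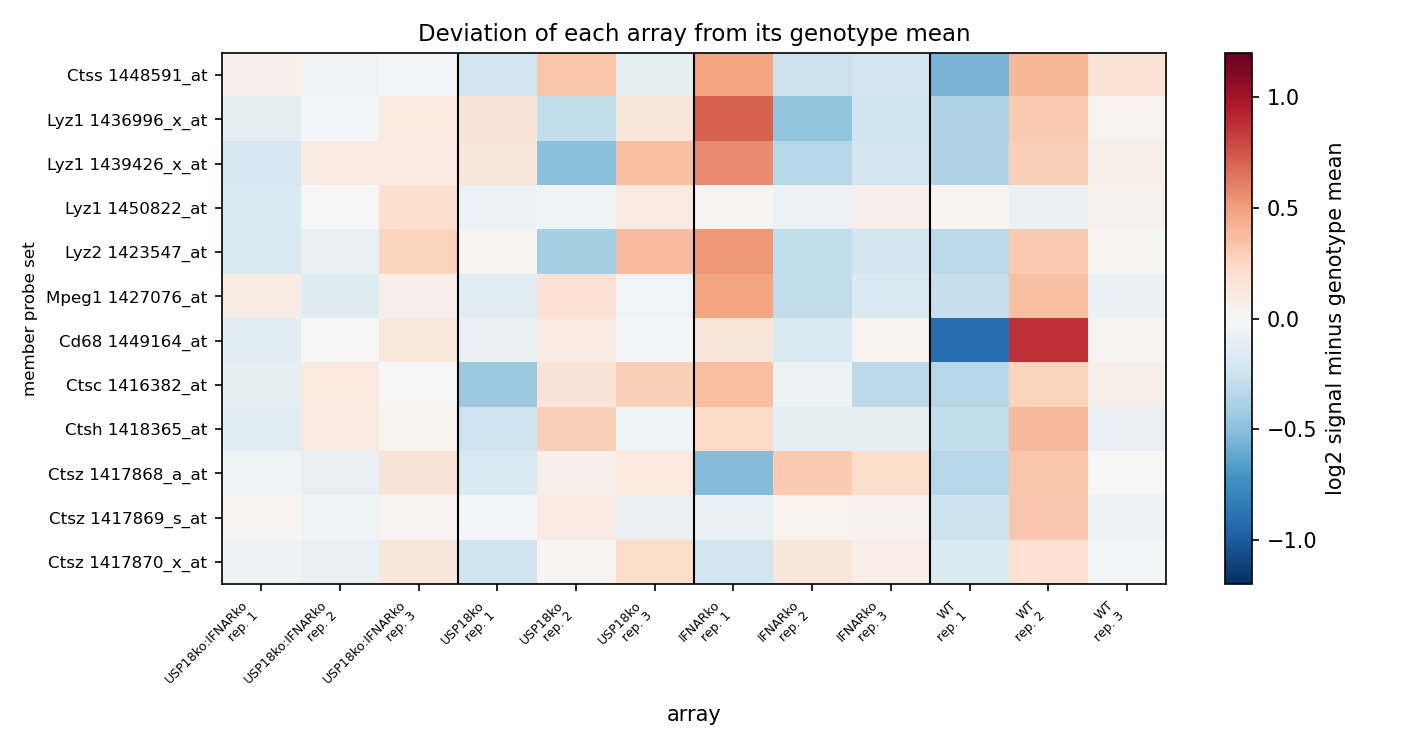
Deviation of each array from the mean of its genotype (log2 units, colour) for the 12 member probe sets in rows and the 12 arrays in columns. WT replicate 1 is low and WT replicate 2 high in 11 of 12 rows, IFNARko replicate 1 is high in 8 and low in the Ctsz rows, and USP18ko replicate 2 is low in Lyz2 and the 2 _x_at rows of Lyz1.

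Other genes of the lysosome, of protease inhibitors and of leukocyte granules, listed by their known roles, were tested beside them. Of 84 listed genes 70 were measured, and 0 of them were called in USP18ko against WT by limma, with 5 at an unadjusted p under 0.05. Among all 12393 genes 1.12% were called, so a count of 0 in 70 is near the background. The median difference of the 70 was 0.02, beside -0.02 over all genes, and the range was -0.25 to 0.52. The members' larger values in this contrast were fixed by their choice. The lists left out the members, a group widened from genes already seen to be higher in this contrast. The count of 0 therefore does not describe lysosome genes as a whole. Tested by all 117 of their probe sets, 0 were called as well. With array weights 4 of the 70 were called, beside 523 of all 22626 probe sets. They were Lgmn (0.56), Man2b1 (0.44) and Lamp2 (0.34) as higher and Ctsk (-0.59) as lower, all named after their values were seen. All USP18ko arrays lay above all WT arrays for 4 of the 70 (Man2b1, Lamp2, Cst7 and Stfa3), beside 4.07% of all genes.

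By role, the 12 other lysosomal proteases had a median of 0.14, and the largest difference was that of the aspartic protease gene Ctse, at 0.51 (SE 0.32, limma adjusted p = 1), with overlapping groups. The 15 glycosidases and sulfatases had a median of 0.01, with Man2b1, an alpha-mannosidase gene, at 0.38 (SE 0.12, limma adjusted p = 0.547). For Man2b1 all USP18ko arrays (8.86, 9.36 and 9.22) lay above all WT arrays (8.82, 8.83 and 8.64). The 10 genes of lipid handling had a median of 0.01, and Npc2, which carries cholesterol out of the lysosome, the largest difference, 0.27 (SE 0.14).

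The 12 genes of the lysosomal membrane and proton pump had a median of -0.02. Among them Lamp2, a major membrane glycoprotein gene of the same family as Cd68, differed by 0.32 (SE 0.14), with signals of 9.26, 9.13 and 9.27 in USP18ko, against 8.88, 8.94 and 8.88 in WT. The 6 genes of lysosome biogenesis and sorting, TFEB's gene included, had a median of -0.03, and Igf2r, a receptor for mannose 6-phosphate, differed by 0.11 (SE 0.21). None of these genes passed.

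The inhibitors of cysteine proteases, which can block cathepsins, had the highest median of these lists, 0.30 over 5 genes. Cst7, the cystatin F gene of immune cells, read 3.93, 3.92 and 4.31 in USP18ko, against 3.40, 3.47 and 3.73 in WT, a difference of 0.52 (SE 0.13, limma adjusted p = 0.136) that did not pass. These signals lie near the bottom of the range of the arrays. The 10 granule genes of cytotoxic cells and neutrophils, among them the perforin gene Prf1 and serine protease genes that Ctsc activates, had a median of 0.02, and Gzma, a granzyme gene, the largest difference, 0.32 (SE 0.19, limma adjusted p = 1). In the other comparisons limma also called 0 of the 70, with 7 at an unadjusted p under 0.05 in IFNARko against WT, 5 in USP18ko:IFNARko against WT, 7 in USP18ko:IFNARko against USP18ko, 5 in USP18ko:IFNARko against IFNARko and 3 for the interaction. The shares of all genes called were 0.00807%, 0%, 1.39%, 0% and 0.791% in the same order. Galc, named after its values were seen, differed most, by 2.67 (SE 0.87) in IFNARko against WT, with a WT SD of 2.07.

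**Figure D4:**
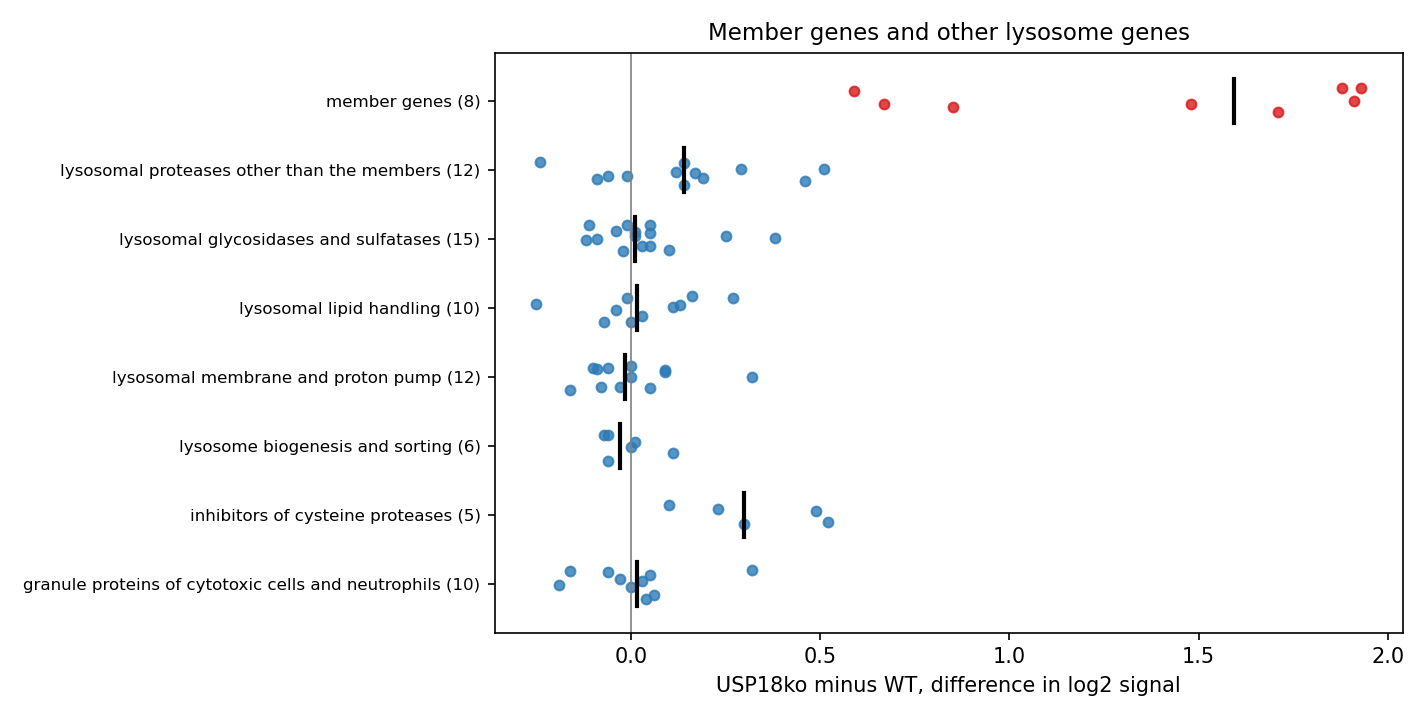
Difference in log2 signal of USP18ko minus WT for the 8 member genes (red, chosen on this contrast) and 70 other lysosome, inhibitor and granule genes by role (blue), 1 point per gene by its probe set with the highest mean, with the median of each row as a black bar and the number of genes in parentheses. The members' median is 1.60 and the other rows' medians run from -0.03 to 0.30.

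Markers of the cells that express these genes were examined beside them. In USP18ko against WT, 2 of 10 microglia markers rose by limma's test, beside 1.12% of all genes called, Aif1 by 1.93 (SE 0.29, adjusted p = 0.00447) and Itgam by 0.80 (SE 0.14, adjusted p = 0.0153). The microglia surface protein genes Cx3cr1, P2ry12 and Tmem119, named after their values were seen, differed by 0.35, -0.35 and 0.41 and did not pass. The median of this list was 0.50, and its summed signal (log2) was 11.21 to 11.92 in USP18ko, against 10.26 to 11.25 in WT. It was 10.66 to 10.76 in USP18ko:IFNARko, against 10.63 to 10.98 in IFNARko. Ms4a7 rose by 1.74 (SE 0.15, limma adjusted p = 2.81e-05) as the 1 gene called among 8 markers of perivascular macrophages, whose summed signal was 9.57 to 9.93 in USP18ko, against 8.89 to 9.33 in WT. That signal was 8.97 to 9.20 in USP18ko:IFNARko, against 9.28 to 9.78 in IFNARko, which overlapped USP18ko. In USP18ko:IFNARko against IFNARko this list had a median of -0.35, with 0 genes called. There 4 of its 8 genes were lower without overlap, beside 19.5% of all probe sets without overlap in either direction. The part of this list in the member values of that comparison was not tested.

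Of 5 blood monocyte markers 1 rose, Plac8, by 3.35 (SE 0.33, limma adjusted p = 0.000108), while Ccr2 read 3.45 to 3.84 in USP18ko, against 3.41 to 3.58 in WT. The other 4 monocyte markers, Ccr2 included, differed by -0.11 to 0.26 with overlapping groups, while the summed signal with Plac8 was 9.55 to 10.03 in USP18ko, against 8.66 to 9.27 in WT. Of 7 neutrophil markers 0 passed limma's test. All USP18ko arrays nonetheless lay above all WT arrays for 6 of the 7, beside 4.07% of all genes, with S100a9 at 1.63 (limma adjusted p = 0.144). Among these, Csf3r and Mmp8 differed by only 0.11 and 0.13. Lcn2 ran from 4.05 to 8.32 among the USP18ko arrays, against 3.51 to 3.80 in WT. The summed neutrophil signal was 8.02 to 9.41 in USP18ko, against 7.45 to 7.74 in WT. It was 7.57 to 8.27 in USP18ko:IFNARko, which overlapped USP18ko, and 7.50 to 7.93 in IFNARko. In USP18ko:IFNARko against WT, S100a9 was higher without overlap (0.86) and Csf3r lower without overlap (-0.29). Of all probe sets, 15.9% did not overlap in either direction in that comparison. Lists for T and natural killer cells, B cells and red blood cells had 0 called genes and medians between -0.03 and 0.13. The parts of microglia, macrophages, monocytes and neutrophils in the member signals were not tested.

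The lists for neurons, astrocytes, oligodendrocytes and choroid plexus held 0 called genes in USP18ko against WT, with medians of -0.01, 0.09, 0.04 and -0.27. The summed neuron signal was 14.31 to 14.37 in USP18ko:IFNARko, 14.31 to 14.40 in USP18ko and 14.25 to 14.46 in IFNARko, against 14.39 to 14.47 in WT, so that neuronal transcripts were abundant in all 12 arrays of this brain tissue. The summed oligodendrocyte signal ran from 11.75 to 13.74 among the WT arrays alone. In USP18ko:IFNARko against USP18ko the markers Plac8 (-3.81), Aif1 (-2.31), Ms4a7 (-2.06), Itgam (-0.72) and the neutrophil receptor gene Csf3r (-0.40) were called as lower. Kcne2 of the choroid plexus (1.15) was called as higher, and limma adjusted p-values were 5.04e-06 to 0.0416, beside 1.39% of all genes called. Of these markers, Csf3r and Kcne2 were not called in USP18ko against WT. Without overlap, 7 of 10 microglia markers were lower and 0 higher (list median -0.61), beside 7.12% of all probe sets lower. Of 5 choroid plexus markers 4 were higher and 0 lower without overlap (list median 0.31), and no share of higher probe sets is given here. The part of these lists in the member values was not tested.

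Among the 12385 genes that are not members, those with the pattern most like the mean of the members over the 12 arrays were Aif1 (r = 0.990), Ms4a7 (0.984), Ms4a6b (0.978), Cd52 (0.976), Isg20 (0.976), Laptm5 (0.976), B2m (0.974) and Pnp (0.972). Each was higher in USP18ko than in WT, by 0.73 for Pnp to 3.12 for Cd52. These r are a description over arrays of which the 3 USP18ko stand apart. When each array was taken relative to the mean of its genotype, the order changed: Npc2 came first (r = 0.990), followed by Mrpl46 (0.980), Brcc3 (0.979), Cdc26 (0.978), Ntpcr (0.966), Fam162a (0.964), Ece2 (0.961) and Washc3 (0.960). Of the first 8 genes, Aif1 and Pnp also had r of 0.934 within genotypes, and Ms4a7 0.914. The members' mean deviation was largest in WT replicate 1 (-0.43), WT replicate 2 (0.41) and IFNARko replicate 1 (0.30). The r within genotypes rest largely on these arrays, and those of the second ranking are the highest of 12385 genes. Npc2 followed the members in these arrays, with 10.54, 11.08 and 10.81 in WT and 11.12, 10.80 and 10.82 in IFNARko. It differed by 0.27 between USP18ko and WT (limma adjusted p = 1).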

How the data were processed

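The authors deposited 1 log2 signal for each probe set and array. Per the submitters' processing notes the R package affy was used, and the sources used here do not state the background correction, normalization or probe summary. That the log has base 2 was taken from the size of the values, and no scanner files were used, so a low signal has no detection call. After 64 control probe sets were left out, 22626 were fitted with limma 3.58.1 in R 4.3.3, with a mean for each genotype (8 residual degrees of freedom) and Benjamini-Hochberg adjustment over all probe sets of a comparison; a probe set was called at an adjusted p under 0.05. Per the platform annotation, 20380 probe sets had 1 gene, and a listed gene counts by its probe set with the highest mean. Non-overlap means that all arrays of one genotype lie above all of another. Limma was tested on simulated data. Deviations from the genotype mean correlated over 0.1 in all 3 same-numbered pairs of USP18ko:IFNARko and USP18ko, a pairing seen in the data and not stated in the labels, and in no other pair of genotypes in all 3. Members and lists were chosen with earlier results of these data known. Named from the lists are called genes or, where a list had none, the gene with the largest difference in USP18ko against WT, and others were chosen with their values known. Promoters are from RefSeq (GRCm38.p6), and lengths or sequences of proteins were not used here. Alternatives were 1 probe set per gene or their mean, a filter on mean signal (40th percentile), median centring, quantile normalization, array weights (gene by gene), a trended and robust variance, the groups compared alone, the replicate number as a block, Eif2s3y as a covariate, a fold threshold and each array left out.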

Additional observations from a re-analysis of the deposited data

How the results depend on the processing

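Of 3 arrays per genotype, IFNARko replicate 1 and WT replicates 1 and 2 limit these values most. All values of the members in USP18ko against WT stayed above 0 (0.16 to 2.13) and all in USP18ko:IFNARko against USP18ko below 0 (-2.39 to -0.13) under the alternatives. In USP18ko:IFNARko against IFNARko 0 members were called under each alternative, the replicate block included, and signs changed. With Eif2s3y as a covariate Ctss was at 0.18, Lyz1 1439426_x_at at 0.00, Lyz2 at 0.01, Mpeg1 at 0.11, Cd68 at 0.53 and Ctsc at 0.13. The covariate's fit also draws on the WT arrays. With array weights Lyz2 was at 0.02 and Mpeg1 at 0.15. Without IFNARko replicate 1 they were at 0.07 and 0.16, also without WT replicate 1 as well, and at 0.11 and 0.24 without USP18ko:IFNARko replicate 2 as well; without that last array alone Mpeg1 was at 0.00. Over all settings that left out 1 array, Lyz2 ran from -0.35 to 0.07 and Mpeg1 from -0.22 to 0.16. These pairs of arrays were chosen after seeing the data.

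Listed lysosome, inhibitor and granule genes were called with array weights, 4 in USP18ko against WT, 10 in IFNARko against WT and 9 in USP18ko:IFNARko against WT. There were 4 in USP18ko:IFNARko against USP18ko and 1 in USP18ko:IFNARko against IFNARko. In the same order, 523, 2884, 2306, 598 and 241 of all 22626 probe sets were called with array weights. WT replicate 3 had a weight of 4.91 in that setting, against 0.256 and 0.458 for the other WT arrays. Lgmn (-0.57) was the 1 listed gene called in USP18ko:IFNARko against USP18ko with these groups alone, beside 441 of all probe sets. Igf2r was the 1 called in that comparison (0.47) and against WT (0.88) without IFNARko replicate 1 and WT replicate 1, beside 464 and 41 of all probe sets. Leaving out 1 array, 0 to 2 member probe sets did not overlap in IFNARko against WT and 0 to 6 in USP18ko:IFNARko against WT. The share of all probe sets was not computed for these settings. Same-numbered arrays correlated at -0.261 to 0.256 over 18 pairs, with 6 over 0.1, so numbers do not pair the samples in general. In USP18ko:IFNARko and USP18ko all 3 same-numbered pairs were over 0.1 (0.101, 0.256 and 0.146), against -0.212 to 0.1 for the others; there the replicate block gave 255 called probe sets, against 270 without it. In USP18ko against WT it gave 205, against 221, and it gave 0 called list genes in each comparison.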
